A study of Mus musculus with 3 samples.

Results

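The genes described are 7 of the 25906 genes counted in the files: Il7r, Cd200r1, Cxcr6, Tmem176a, Tmem176b, Ckb and Podnl1. They were chosen by symbol as a list of genes known to mark type 1 innate lymphoid cells (ILC1), and all 7 were found in each of the 3 libraries. The choice was made with earlier results of these data known, so counts of these genes past a threshold are a description. Single cells were measured by droplet sequencing of polyadenylated RNA from sorted live NK1.1+ NKp46+ cells, the gate that holds natural killer (NK) cells and also admits ILC1. The wild-type mice were female, 9 weeks old, and either naive or given 100000 PyMT mammary tumor cells intravenously 6 h or 14 days before sacrifice. Each condition was 1 library in which lung and blood cells shared the droplets and were told apart by a hashtag antibody, which gave 6 groups of cells. Tag B0304 is taken here to mean lung and tag B0306 to mean blood, because that is the order in which tissues and tags are named, and no label pairs them otherwise. No label ties a cell to a mouse, so cells are not replicates, no test between conditions was possible, and time and library cannot be told apart.

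NK cells and ILC1 are both innate lymphocytes that use the transcription factor T-bet and can make interferon-γ. ILC1 are known as largely tissue-resident cells that keep the IL-7 receptor and adhesion molecules such as CD49a, whereas circulating NK cells depend on Eomes and carry integrins and receptors of mature cytotoxic cells. Because both carry NK1.1 and NKp46, the gate alone does not part them, and ILC1 are identified by combinations of genes rather than by any single one.

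The 7 genes code for proteins of unlike kinds. Il7r (ENSMUSG00000003882, chromosome 15 from 9505788 to 9530176, minus strand, GRCm38) codes for the α-chain of the IL-7 receptor, a survival receptor of lymphocytes. Cd200r1 (ENSMUSG00000022667, chromosome 16 from 44765736 to 44794978, plus strand) codes for an inhibitory receptor that binds CD200. Cxcr6 (ENSMUSG00000048521, chromosome 9 from 123806475 to 123811760, plus strand) codes for the chemokine receptor for CXCL16 and lies within Fyco1, which runs on the opposite strand. Tmem176a (ENSMUSG00000023367, chromosome 6 from 48840919 to 48847071, plus strand) and Tmem176b (ENSMUSG00000029810, chromosome 6 from 48833818 to 48841496, minus strand) code for related membrane proteins with 4 membrane spans. Ckb (ENSMUSG00000001270, chromosome 12 from 111669361 to 111672338, minus strand) codes for the brain-type creatine kinase, which buffers ATP. Podnl1 (ENSMUSG00000012889, chromosome 8 from 84125989 to 84132527, plus strand) codes for a leucine-rich repeat protein related to podocan. All 7 are protein-coding in GENCODE M21, from which the positions were taken.

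Tmem176a and Tmem176b were the pair most often found together in a cell, and they are neighbours that run away from each other on opposite strands and overlap at their 5′ ends. Their promoter windows (250 bases before to 50 bases after a gene start, RefSeq, GRCm38.p6) are shown for that reason, in lower case with the 208 bases that both windows cover in capitals. The Tmem176a window lies at chr6:48841233-48841532 on the plus strand and the Tmem176b window at chr6:48841325-48841624 on the minus strand, and the 2 starts lie 109 bases apart.
Tmem176a: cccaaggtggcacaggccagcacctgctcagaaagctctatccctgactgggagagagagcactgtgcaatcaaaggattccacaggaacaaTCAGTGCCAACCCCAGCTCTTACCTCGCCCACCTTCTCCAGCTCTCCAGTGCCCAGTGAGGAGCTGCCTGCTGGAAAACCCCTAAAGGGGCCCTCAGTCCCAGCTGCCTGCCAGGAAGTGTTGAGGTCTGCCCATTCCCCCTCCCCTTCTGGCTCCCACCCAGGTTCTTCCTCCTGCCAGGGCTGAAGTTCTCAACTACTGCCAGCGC
Tmem176b: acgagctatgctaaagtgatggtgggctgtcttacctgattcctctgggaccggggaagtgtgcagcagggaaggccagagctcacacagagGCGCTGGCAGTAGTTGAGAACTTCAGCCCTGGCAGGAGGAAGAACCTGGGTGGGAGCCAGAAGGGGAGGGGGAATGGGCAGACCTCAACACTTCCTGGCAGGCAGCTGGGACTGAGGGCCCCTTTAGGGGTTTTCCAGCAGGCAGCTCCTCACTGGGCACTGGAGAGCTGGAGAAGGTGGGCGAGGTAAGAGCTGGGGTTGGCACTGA
The table holds further start sites of both genes, so this is 1 of several arrangements. Windows were found for 5 of the 7 genes, and not for Cd200r1 or Podnl1. Among the motifs searched on both strands (AGGTCA for ROR factors, TGTGGT for RUNX, AGGTGT for T-box factors, AGATAA for GATA and CCGGAA for ETS), none was in a Tmem176a, Tmem176b or Ckb window. The RUNX letters were in the Il7r and the Cxcr6 window, and 16.8% of all 32851 windows hold them.

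Of the barcodes that passed the filter on cells, 21113 had 90% or more of their tag counts from 1 hashtag, with 2069 in the smallest group (14-day blood) and 4680 in the largest (6 h lung). Median counts of unique molecules (UMIs) per cell ran from 5909.5 (naive lung) to 7524 (14-day blood), so the later groups were somewhat deeper. Libraries shared 16, 11 and 7 cell barcodes pairwise. Free RNA was estimated from barcodes with at most 100 counts. The marker of another cell type with the lowest level in cells against those barcodes set the estimate. It was 4.26%, 2.47% and 0.554% of the counts in naive, 6 h and 14-day cells, and up to 9.70% of the UMIs of any of the 7 genes in any group. These values rest on 14 and 17 Ms4a1 UMIs and 3 S100a8 UMIs in cells. They have no interval and are not firm upper limits. The sort markers Ncr1 and Klrb1c, which code for NKp46 and NK1.1, were found in 98.2% and 99.2% of cells with none of the 7 genes.

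The 7 genes were scarce in every group, and all 7 were highest 14 days after tumor injection. Levels are the UMIs of a gene as a part of all UMIs of a group, on the usual scale of CPM, with 95% exact Poisson intervals. Intervals throughout cover counting error only, and they are too narrow for genes whose UMIs pile up in few cells, as these did. A higher summed level can come from more cells with a gene or from more RNA per cell, which the sum alone cannot tell apart.

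Il7r had 22.2 CPM in naive lung, 13.2 in naive blood, 23.02 in 6 h lung, 18.8 in 6 h blood, 32.4 (95% CI 30.3 to 34.6) in 14-day lung and 25.7 (23.3 to 28.2) in 14-day blood. Lung was above blood at each time, and 14-day blood, 6 h lung and naive lung, which follow each other in the order of levels, did not differ from their neighbour among the 3 beyond the interval. The share of cells with an Il7r UMI ran from 3.05% in naive lung to 5.59% in 14-day lung. Naive lung and naive blood had nearly the same share (3.05% and 3.07%), while positive cells held 4.64 UMIs on average in lung and 2.96 in blood.

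Cd200r1 had 5.16, 5.07, 5.96 and 5.66 CPM in naive lung, naive blood, 6 h lung and 6 h blood, which did not differ from one another beyond their intervals. It then had 7.56 CPM (6.58 to 8.65) in 14-day lung and 11.3 (9.73 to 13.0) in 14-day blood. Blood was the higher tissue at 14 days, with an interval apart from lung.

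Cxcr6 had 3.45, 2.57, 2.95 and 3.26 CPM in the same 4 earlier groups, again without a difference beyond the intervals of neighbours in the order. In 14-day lung it had 4.72 CPM (3.95 to 5.59), and in 14-day blood 15.3 (13.5 to 17.3). Lung cells thus had 0.309 times (95% CI 0.249 to 0.382) the Cxcr6 level of blood cells at 14 days.

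Tmem176a had 2.22 CPM in naive lung, 1.63 in naive blood, 1.92 in 6 h lung, 3.44 in 6 h blood, 10.9 (9.71 to 12.2) in 14-day lung and 7.56 (6.31 to 8.99) in 14-day blood. Tmem176b had 2.73, 3.37, 3.26, 4.17, 14.8 (13.4 to 16.3) and 10.4 (8.91 to 12.0) CPM in the same order of groups. Both genes were highest in the 14-day library. Lung was above blood there over all cells, but not without the cells that carried a myeloid gene, as given with the comparison of tissues.

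Ckb had few UMIs before 14 days, with 0.724, 0.767, 0.946 and 1.45 CPM in naive lung, naive blood, 6 h lung and 6 h blood. It reached 7.91 CPM (6.91 to 9.02) in 14-day lung and 7.85 (6.57 to 9.31) in 14-day blood, and these did not differ beyond their intervals. Podnl1 had 1.02, 1.53, 1.95 and 2.81 CPM in the 4 earlier groups, 3.90 (3.21 to 4.71) in 14-day lung and 5.73 (4.64 to 6.99) in 14-day blood. Podnl1 was the only gene of the list whose CPM was higher in blood than in lung at every time, although the naive interval held equality.

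**Figure D1:**
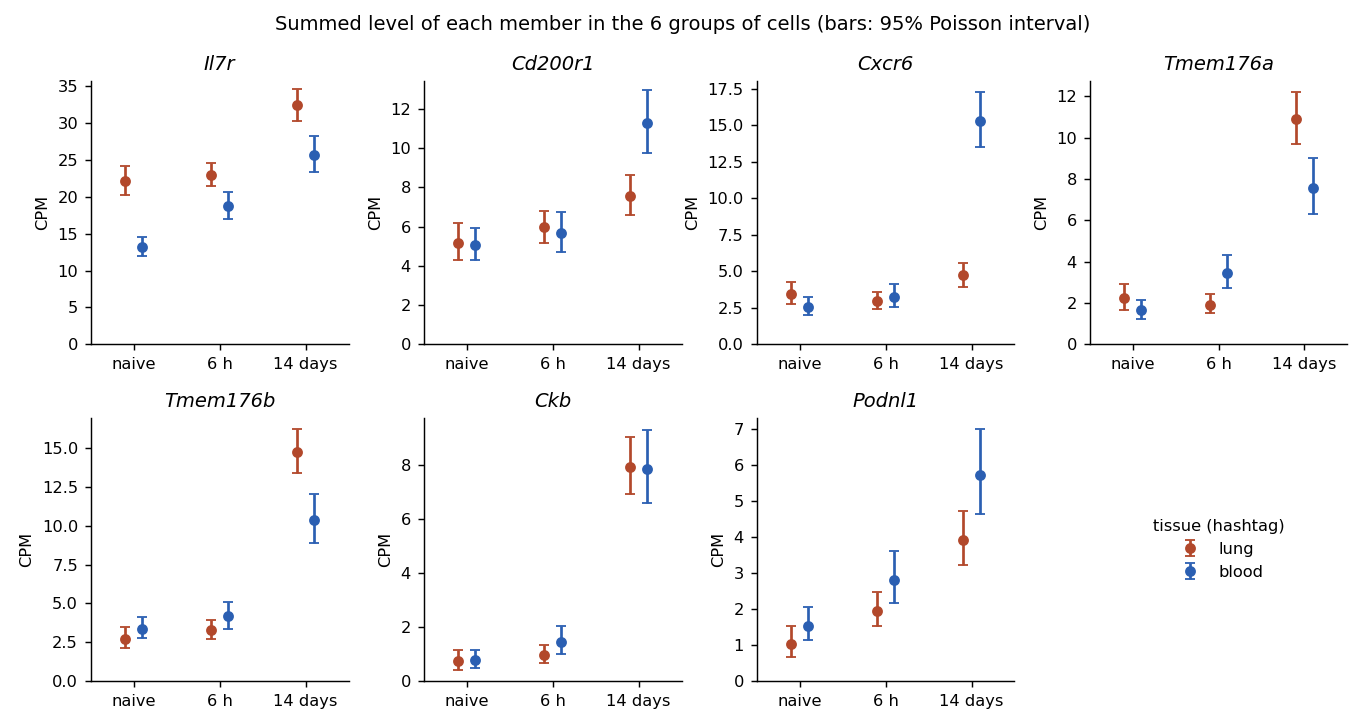
Level of each of the 7 genes (CPM, vertical axis from 0) in lung (red) and blood (blue) cells of the naive, 6 h and 14-day libraries; points are summed counts and bars are 95% Poisson intervals for counting error. All 7 genes are highest at 14 days, and Cxcr6 stands at 15.3 CPM in blood against 4.72 in lung.

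Over all cells of the 14-day library against the naive one, all 7 genes were higher in lung and all 7 were higher in blood. Each interval lay above 0, and the share of all genes with such an interval was not computed. In lung, 4 of the 7 were at least 2-fold higher, while 2.9% of the 11964 genes with at least 100 UMIs over all groups were. None was 2-fold lower (3.8% of all genes were). These were Ckb (log2 3.45, 95% CI 2.74 to 4.25), Tmem176b (2.44, 2.05 to 2.84), Tmem176a (2.30, 1.87 to 2.75) and Podnl1 (1.93, 1.29 to 2.63). Lyz2, Csf1r, C1qa and the MHC class II presentation genes Cd74, H2-Aa and H2-Ab1 are here called the 6 myeloid genes, after their list. Their UMIs alone do not name a cell type. Cells with a UMI of at least 1 of them were 0.979% of naive lung and 5.31% of 14-day lung. These cells held 9.62% and 47.9% of the Tmem176a UMIs and 6.25% and 43.3% of the Tmem176b UMIs there. Of the Cd200r1, Cxcr6 and Podnl1 UMIs they held 1.65%, 7.41% and 8.33% in naive lung and 25.4%, 17.3% and 26.4% in 14-day lung. Without these cells, the log2 ratios were 1.59 for Tmem176a, 1.80 for Tmem176b and 3.23 for Ckb. No interval is given without them, so none is shown to stay above 0. Over all cells, Il7r, Cd200r1 and Cxcr6 were higher by 0.55, 0.55 and 0.45 on the log2 scale in lung, between 1.37-fold and 1.47-fold.

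In blood, 6 of the 7 were at least 2-fold higher at 14 days, against 1.25% of all genes tested. Ckb again had the largest log2 ratio of the list (3.36, 2.71 to 4.06), followed by Cxcr6 (2.57, 2.20 to 2.96), Tmem176a (2.21, 1.72 to 2.71), Podnl1 (1.90, 1.38 to 2.44), Tmem176b (1.63, 1.26 to 1.99) and Cd200r1 (1.15, 0.84 to 1.47). Il7r was higher by 0.96 (0.76 to 1.16). The median log2 ratio over all genes tested was -0.17 in lung and -0.14 in blood. Measured against that median, all 7 were at least 2-fold higher in blood, where 1.61% of all genes tested were. Lung and blood of a library share droplets and sequencing, so the 2 tissues do not check each other for the library.

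After 6 h the picture was smaller and mixed. In lung no gene of the list was 2-fold higher (0.602% of all genes were), and only Podnl1 had an interval above 0 (log2 0.93, 0.24 to 1.66). In blood 1 of 7 was (0.719% of all genes), namely Tmem176a (1.07, 0.54 to 1.62), and Il7r (0.51), Ckb (0.92) and Podnl1 (0.87) also had intervals above 0. The remaining intervals held 0 in both tissues.

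Between tissues no gene of the list was 2-fold apart in the naive or the 6 h library, and 1 was at 14 days. At least 2-fold higher in lung were 4.06%, 3.85% and 4.16% of all genes tested in the naive, 6 h and 14-day libraries, and at least 2-fold lower were 2.07%, 1.95% and 2.68%. In the naive library only Il7r had an interval away from 0 (log2 lung over blood 0.74, 0.55 to 0.93). At 14 days Il7r (0.34), Tmem176a (0.53) and Tmem176b (0.51) were higher in lung, and Cd200r1 (-0.58), Cxcr6 (-1.70) and Podnl1 (-0.55) were lower. Ckb had 0.01 (-0.30 to 0.33). Without cells with a UMI of the 6 myeloid genes, Tmem176a was -0.14 and Tmem176b -0.00077 in lung over blood at 14 days.

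Most single cells had none of the 7 genes. At least 1 was found in 1889 of the 21113 cells, at least 3 in 246, at least 5 in 107 and all 7 in 13. Cells with 3 or more made up 0.626% (95% binomial CI 0.397 to 0.937) of naive lung, 0.366% (0.210 to 0.594) of naive blood, 0.769% (0.539 to 1.06) of 6 h lung, 1.02% (0.679 to 1.47) of 6 h blood, 2.01% (1.58 to 2.53) of 14-day lung and 3.43% (2.69 to 4.31) of 14-day blood. In cells, these are 23 of 3676, 16 of 4367, 36 of 4680, 28 of 2746, 72 of 3575 and 71 of 2069. The intervals of the 4 earlier groups overlapped except those of naive blood and 6 h blood, and both 14-day groups lay above all of them.

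The share with 3 or more genes was 3.22-fold (1.99 to 5.40) higher at 14 days than in the naive library in lung and 9.37-fold (5.39 to 17.3) higher in blood. It was lower in lung than in blood at 14 days (fold 0.587, 0.417 to 0.826), but without cells that had a Cd3e, Cd3d or Cd3g UMI the interval held equality (0.741, 0.496 to 1.11). For cells with 5 or more genes the folds over naive were 6.51 (2.73 to 18.8) in lung and 15.2 (5.94 to 49.6) in blood. At 6 h the fold in lung was 1.23 (0.709 to 2.17), and in blood 2.78 (1.45 to 5.51).

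Depth moved with these shares. Cells with 3 or more genes had a median of 11056.5 UMIs in 14-day lung, where all cells had 6999, and of 8028 in 14-day blood, where all cells had 7524. With every cell thinned to 3000 UMIs, and 86, 75, 40, 20, 38 and 6 shallower cells left out, the shares were 0.334%, 0.140%, 0.259%, 0.440%, 0.961% and 1.79% in the same order of groups. The folds over naive at 14 days were then 2.88 (1.45 to 6.10) in lung and 12.8 (5.37 to 37.2) in blood. Barcodes with both tags, which had been left out and had a median of 15333 UMIs in the 14-day library, carried 3 or more genes in 10 of 134 cases there (7.46%, 3.64 to 13.3), and in 3 of 342 and 2 of 158 cases in the naive and 6 h libraries. The part of doublets in the 14-day shares was not tested further.

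**Figure D2:**
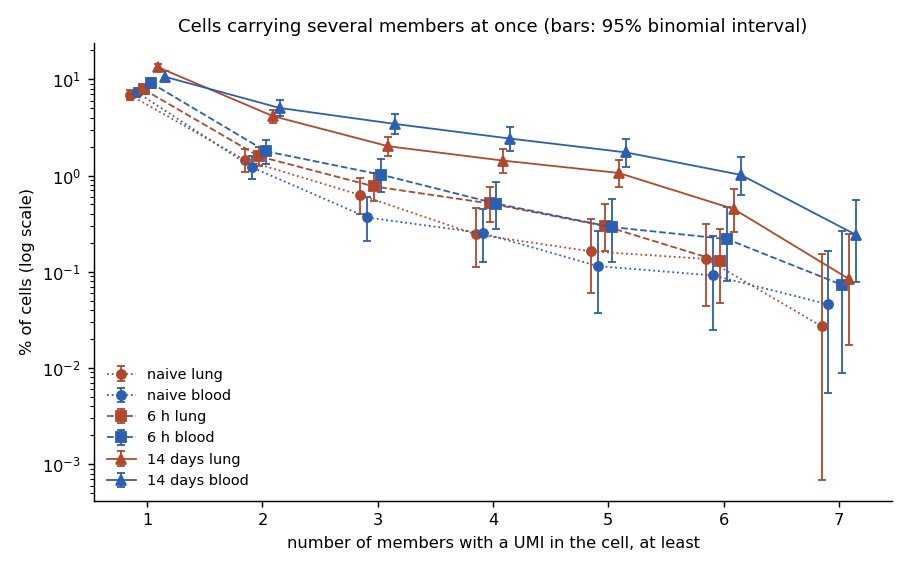
Percentage of cells (log scale) with UMIs of at least the number of genes on the horizontal axis, for lung (red) and blood (blue) of the naive (dotted, circles), 6 h (dashed, squares) and 14-day (solid, triangles) libraries, with 95% binomial intervals; values of 0 are not drawn. The groups start between 6.86% and 13.4% for at least 1 gene, and from 3 genes on both 14-day groups lie above the other 4.

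Mature NK cells served as the reference that should lack these genes, taken as cells with UMIs of both Klrg1 and Cx3cr1. They carried 3 or more genes of the list in 2 of 709, 0 of 826, 1 of 896, 2 of 537, 4 of 498 and 6 of 575 cells in the same order of groups. With the 0 set to 3 counts its share would be 0.363%, which is not an exact interval limit. Each share was below that of all cells of its group. The shares at 14 days, 0.803% in lung and 1.04% in blood, lay above those of all cells in naive lung (0.626%) and naive blood (0.366%). Their median depth (6278 to 8085 UMIs) was near that of all cells. For single genes, of the 42 shares of cells with a UMI of 1 gene in 1 group, 4 were at or below the reference, 32 were above it with overlapping intervals and 6 were apart from it. Most single-gene shares were thus above the reference, but not beyond the intervals. For 3 or more genes the intervals of the reference were not compared with those of the groups. The reference cells were few (498 to 896) and are part of each group, so this comparison is weak for single and for several genes. The description that follows rests on several genes in 1 cell.

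Each gene was found far more often where the others were. Over all groups, Il7r was found in 2.45% of cells with none of the other 6 genes, in 12.3% with 1, in 37.1% with 2 and in 76.1% with 3 or more. Cxcr6 went from 0.882% over 2.83% and 12.3% to 53.2%, and Tmem176a from 0.275% over 4.58% and 17.5% to 60.5%. Tmem176b reached 68.0%, Cd200r1 51.0%, Ckb 45.9% and Podnl1 40.1% in cells with 3 or more others, from 0.533%, 1.58%, 0.646% and 0.851% in cells with none. The same order from 0 to 3 or more others held for each of the 7 genes after thinning to 3000 UMIs, with 65.4% for Il7r and 18.2% for Podnl1 in the last class.

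**Figure D3:**
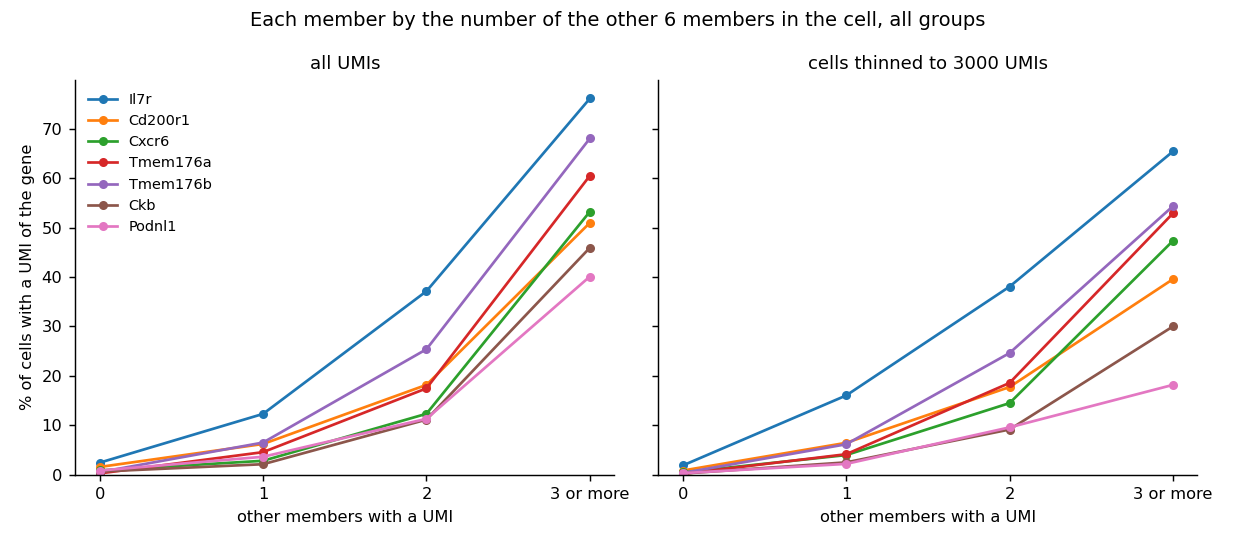
Percentage of cells with a UMI of each gene (vertical axis) by how many of the other 6 genes the same cell carried (horizontal axis), over all 6 groups, with all UMIs (left) and with cells thinned to 3000 UMIs (right). On the left the lines rise from between 0.275% and 2.45% to between 40.1% and 76.1%, and on the right all 7 rise too.

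The share of a gene's UMIs that lay in cells with at least 2 of the other genes differed between the genes. It was 76.2% (72.8 to 79.4) for Tmem176a, 68.3% for Tmem176b, 61.4% for Cxcr6, 57.1% for Ckb, 43.0% for Podnl1, 42.2% for Cd200r1 and 35.1% (33.5 to 36.7) for Il7r. These cells were between 1.66% and 2.15% of all cells. Il7r had the lowest share over all groups, also at 3000 UMIs per cell (19.1%, with 60.3% for Tmem176a) and with at least 2 UMIs of the other genes (21.02%, with 64.6% for Tmem176a). Groups differed, and in 14-day lung Ckb (37.7%) and Podnl1 (41.8%) were lower than Il7r (47.2%). Of the Il7r UMIs, 1671 of 3507 were in cells with none of the other 6.

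Within the 246 cells, Il7r was present in 82.1%, Tmem176b in 74.4%, Tmem176a in 66.3%, Cxcr6 in 58.5%, Cd200r1 in 58.1%, Ckb in 51.6% and Podnl1 in 45.9%. They held 72 different combinations. The most frequent was Il7r with Tmem176a and Tmem176b alone, in 23 cells, of which 2 were from 14-day blood and 8 from 14-day lung. The next were 6 genes without Podnl1 in 18 cells, of which 8 were from 14-day blood, and all 7 in 13 cells.

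Of pairs, Tmem176a and Tmem176b were joined most: 68.7% (62.9 to 74.1) of cells with Tmem176a had Tmem176b, and 0.883% of cells without it did. By group that share was 45.2%, 44.8%, 67.5%, 67.7%, 76.8% and 81.8% from naive lung to 14-day blood, with wide intervals in the first 4 (27.3 to 64.0 in naive lung). For all 42 ordered pairs of the 7 genes the second gene was more frequent with the first than without it, also after thinning, between 13.3% (Ckb among cells with Il7r) and that 68.7%. How many pairs of other genes would do the same was not counted. Over the 21113 cells, Pearson's r of log-normalized values was 0.69 for Tmem176a with Tmem176b and between 0.20 and 0.38 for the other pairs. The cells come from 3 libraries, and 0 values dominate all these correlations. The 2 genes overlap at their 5′ ends, and the kit reads 3′ ends. Whether reads were assigned to the wrong gene of the pair was not tested.

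Because the genes share cells, the 14-day ratios were taken again without the 246 cells. These cells are defined by UMIs of the same genes, so part of any fall in a ratio follows from their choice. In blood, Il7r then had a log2 ratio of -0.076 (-0.34 to 0.19), Cd200r1 -0.19 (-0.66 to 0.27), Cxcr6 0.47 (-0.13 to 1.06), Podnl1 0.34 (-0.45 to 1.12) and Tmem176a 0.72 (-0.28 to 1.71), and all 5 intervals held 0. Tmem176b (0.58, 0.01 to 1.15) and Ckb (2.71, 1.46 to 4.16) stayed above 0 there. In 14-day blood these 71 cells, 3.43% of the group, held 71.8% of all UMIs of the 7 genes, and in naive blood the 16 such cells held 23.1%.

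In lung, the cells with 3 or more genes held 56.7% of these UMIs at 14 days and 36.4% in the naive library. Without them, Cd200r1 (-0.084, -0.52 to 0.36) and Cxcr6 (-0.12, -0.70 to 0.47) no longer differed from naive beyond their intervals. Ckb (4.30, 3.15 to 5.78), Podnl1 (1.77, 0.96 to 2.66), Tmem176b (1.72, 1.09 to 2.38) and Tmem176a (1.47, 0.73 to 2.27) did, and Il7r had 0.21 (0.01 to 0.41). Leaving out cells by the number of these genes also removes UMIs of the genes themselves, and it removes more of them in groups with more such cells.

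**Figure D4:**
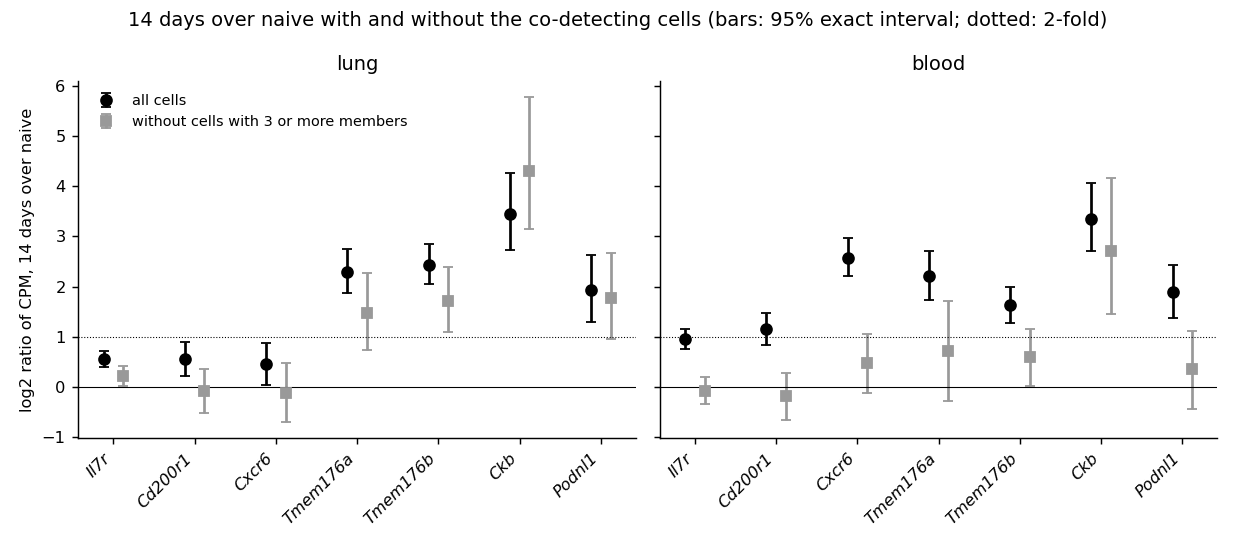
Log2 ratio of CPM at 14 days over naive for each gene in lung (left) and blood (right), for all cells (black circles) and without cells that carried 3 or more of the 7 genes (grey squares); bars are 95% exact intervals, the solid line is equality and the dotted line a 2-fold change. In blood 5 of the grey intervals reach 0, and in lung Ckb goes from 3.45 to 4.30. The cells left out were chosen by UMIs of the same genes.

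Ckb in 14-day lung had the lowest share of the list in cells with other genes, and Podnl1 was near it. Podnl1 had 41.8% (32.5 to 51.6) of its UMIs in cells with at least 2 others there. It had 74.2% (64.3 to 82.6) in 14-day blood and between 21.7% and 33.3% in the 4 earlier groups. Ckb differed from Podnl1 in those earlier groups. In 14-day lung only 37.7% (31.3 to 44.4) of the Ckb UMIs lay in cells with at least 2 other genes, against 81.2% (73.5 to 87.5) in 14-day blood and between 64.7% and 69.6% in the 4 earlier groups. Among cells with none of the other genes, 2.92% carried Ckb in 14-day lung, 0.484% in 14-day blood and between 0.123% and 0.200% earlier. In CPM those cells had 5.00 (4.15 to 5.97) in 14-day lung, 0.863 (0.460 to 1.48) in 14-day blood and 0.231 (0.0749 to 0.538) in naive lung, so the lung and blood intervals did not overlap although the interval of the summed Ckb ratio between the 2 tissues held 0. Podnl1 in cells with none of its other genes had 2.02 CPM (1.49 to 2.68) in 14-day lung and 0.277 (0.102 to 0.602) in naive lung. It had 1.26 (0.756 to 1.96) in 14-day blood, which overlapped 14-day lung.

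The 93 cells of 14-day lung with Ckb and no other gene of the list were set beside the 3096 with none and the 72 with 3 or more. Eomes, the transcription factor of NK cells, was found in 75.3% (65.2 to 83.6) of them, near the 69.7% of cells with none and unlike the 19.4% (11.1 to 30.5) of cells with 3 or more. Itga1, which codes for CD49a, was in 51.6% (41.0 to 62.1) against 21.1% and 61.1%, and Inpp4b in 49.5% (38.9 to 60.0) against 19.7% and 87.5%. Tnfsf10 was in 29.0% (20.1 to 39.4) against 13.0% and 62.5%, and Tcf7 in 45.2% (34.8 to 55.8) against 22.2% and 52.8%. Rora was in 19.4% (11.9 to 28.9), near the 18.9% of cells with none and unlike the 73.6% of cells with 3 or more. Zfp683 was in 1.08% against 0.226% and 6.94%. Itgam was in 41.9% against 62.4% and 16.7%, and Klrg1 in 19.4% against 36.0% and 9.72%. Their median depth was 8675 UMIs against 6776.5 and 11056.5, which raises every share of detected genes to an extent that was not tested.

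Cxcr6 differed between tissues inside the cells that carried other genes of the list. Of 14-day blood cells with at least 2 others, 57.1% (46.7 to 67.1) had Cxcr6 at 241 CPM (209.8 to 275), and of such 14-day lung cells 23.7% (16.9 to 31.7) at 51.7 CPM (40.9 to 64.5). In cells with none of the others it had 1.72 CPM (1.12 to 2.52) in blood and 1.19 (0.790 to 1.72) in lung. In the naive library such cells with at least 2 others had 88.9 CPM (60.4 to 126) in lung and 56.0 (33.7 to 87.4) in blood, with overlapping intervals. Cells with a Cd3e, Cd3d or Cd3g UMI held 37.8% of the Cxcr6 UMIs in 14-day blood and 14.3% in 14-day lung. Without them, the log2 ratio of lung over blood over all other cells was -1.26, and without every cell that carried a gene of the T cell list it was 0.51. The T cell list left only 318 of 3575 cells in 14-day lung and 204 of 2069 in 14-day blood, since NK cells carry Trbc1 and Trbc2. No interval is given for these ratios. Cd200r1 and Podnl1 were likewise in 51.1% and 40.0% of these 14-day blood cells, against 29.2% and 23.9% in 14-day lung.

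Genes that played no part in choosing the cells were then read in the 246 cells with 3 or more genes and in the 19224 with none. Their lists were drawn up with earlier results of these data known, so the counts are a description and no independent check. Of all 11957 other genes tested, 6.85% were at least 2-fold higher and 5.95% at least 2-fold lower in the former. Of 20 other genes known for ILC1, 18 were at least 2-fold higher and none was lower. Itga1 had 256 against 19.3 CPM, Inpp4b 850 against 33.1, Tnfsf10, which codes for TRAIL, 135 against 9.62, Rora 417 against 64.3, Tcf7 102 against 43.2 and Zfp683, which codes for Hobit, 13.2 against 0.143. The median log2 ratio of the 20 was 2.58, and that of all other genes was -0.05.

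Genes of mature NK cells went the other way, with 14 of 16 at least 2-fold lower and a median of -2.16. Eomes had 27.7 against 256 CPM, Itgam, which codes for CD11b, 46.4 against 288, Klrg1 35.4 against 177, S1pr5, a receptor for exit into blood, 32.8 against 129, Cx3cr1 37.1 against 94.0 and Zeb2 309 against 1286. Ly6c2 and Fcgr3, picked out after their values were seen, were the 2 that were not. Of the gate genes, Ncr1 was found in 97.2% (94.2 to 98.8) and Klrb1c in 95.9% (92.7 to 98.0) of the 246. By level over all groups, all 5 genes of a list that holds both gate genes, Nkg7, Klrd1 and Klrk1 were lower in the 246 with intervals below 0. Ncr1 was at 924 against 1136 CPM, Klrb1c at 797 against 1189 and Nkg7 at 1363 against 2855. Klrk1 was only slightly lower (log2 -0.11, -0.17 to -0.05), and by group it was higher in 4 of 6.

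The shares changed step by step with the number of genes in the cell. From 0 over 1, 2 and 3 or 4 to 5 or more genes, Eomes was found in 72.2%, 69.1%, 48.5%, 20.9% and 9.35% (4.57 to 16.5) of cells and Itga1 in 7.84%, 18.0%, 36.6%, 53.2% and 77.6% (68.5 to 85.1). Inpp4b rose over the same classes from 7.43% to 94.4% (88.2 to 97.9). Tcf7 did not follow this order, with 48.2% at 3 or 4 and 38.3% (29.1 to 48.2) at 5 or more.

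**Figure D5:**
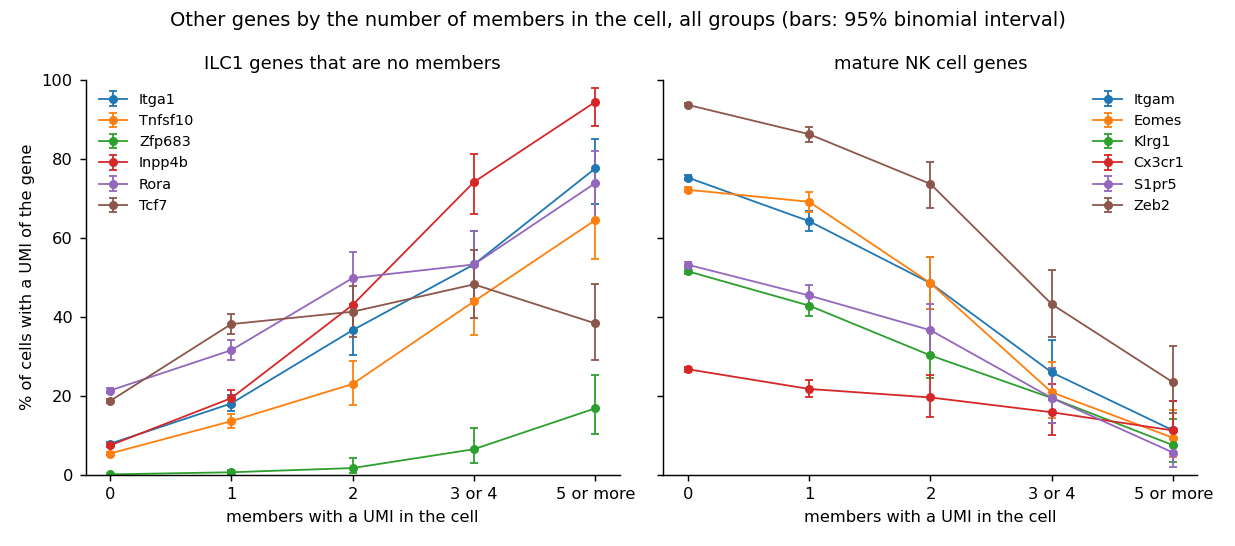
Percentage of cells with a UMI of 6 other ILC1 genes (left) and 6 genes of mature NK cells (right) by the number of the 7 listed genes in the cell, over all groups, with 95% binomial intervals. Itga1 goes from 7.84% to 77.6% and Inpp4b from 7.43% to 94.4%, while Eomes goes from 72.2% to 9.35%.

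In each group taken alone, Eomes was less frequent and Itga1 more frequent in the cells with 3 or more genes. Cd69, picked out after its values were seen, was lower in 4 of 6 groups although higher over all cells (log2 0.85). Eomes was in 17.4%, 18.8%, 19.4%, 14.3%, 19.4% and 9.86% of cells with 3 or more genes from naive lung to 14-day blood, and in 67.0% to 74.2% of cells with none. Itga1 was in 52.2%, 56.3%, 47.2%, 50%, 61.1% (48.9 to 72.4) and 85.9% (75.6 to 93.0) of them. The 14-day blood cells thus had the highest Itga1 share, and cells with none of the genes had Itga1 in 5.68% there and in 21.1% in 14-day lung.

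Of the transcription factors of the lineages, Tbx21, which codes for T-bet, had 319 against 385 CPM in the 246 cells and Id2 1022 against 999, both close to equality. Gata3 had 110 against 73.1, Tox 494 against 326, Runx3 304.2 against 310 and Nfil3 22.6 against 43.0. Of the 9 with at least 20 UMIs, 1 was 2-fold higher (Ikzf2, log2 3.31) and 1 lower (Prdm1, -1.52), both named after their values were seen.

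Partners and targets of the IL-7 receptor moved little as a list, with 2 of 12 at least 2-fold higher, none 2-fold lower and a median of 0.02. Il2rg, the common γ-chain that pairs with the Il7r product, had 328 against 299 CPM, Jak1 698 against 1006, Jak3 20.5 against 13.7, Stat5a 21.7 against 28.8, Stat5b 91.6 against 136 and Bcl2, a survival target, 952 against 837. The 2 that were higher, named after their values were seen, were the feedback genes Cish (log2 1.89) and Socs1 (1.09). Among relatives and partners of the other genes, 2 of 8 with at least 20 UMIs in both sets of cells together were 2-fold higher, Cd200r2 and, on 4 UMIs in 1 cell, Cxcl16, which was named after its values were seen. Cd200r2, next in the Cd200r family, had 69.0 against 0.901 CPM and Cd200r4 90.8 against 70.2, while Ms4a4b, of the family to which the Tmem176 proteins are related, had 1268 against 1432 and Ms4a6b 182 against 93.5. Whether reads of the close relatives Cd200r1 and Cd200r2 were assigned to the wrong gene was not tested.

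Markers of other cell types were also present among the 246 cells. Of 9 T cell genes with at least 20 UMIs in both sets of cells together, 5 were at least 2-fold higher and 1 lower. Their median log2 ratio was 1.25. Cells with lineage markers, CD3ε, CD5, TCRβ, Ly6G and Ter119 among them, had been depleted before the sort. Cd3e was found in 4.88% of the 246 against 0.104% of cells with none, Cd3d in 9.76% against 3.48% and Cd3g in 18.7% against 2.51%. Trac, Trbc1 and Trbc2, which are found in NK cells too, were in 5.69%, 86.2% and 67.9% of the 246 against 8.26%, 72.6% and 38.6% of cells with none. At least 1 of Cd3e, Cd3d and Cd3g was in 54 of the 246 (22.0%), and by group in 21.7%, 18.8%, 11.1%, 17.9%, 16.7% and 35.2%. Without cells that had such a UMI, the share with 3 or more genes was 2.42% in 14-day blood, 7.70-fold (4.09 to 15.5) that of naive blood. The summed level of the 12 T cell genes ran from 840 to 1707 CPM in these cells and from 517 to 597 in cells with none, and Cd8b1 was at 0.

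Myeloid genes were high in few of the cells. Of 10 with at least 20 UMIs in both sets of cells together, 8 were at least 2-fold higher and none lower. Their median log2 ratio was 5.23, above the 2.58 of the other ILC1 genes. Lyz2 had 1534 UMIs in 5 of the 246 cells, with 1017 of them in 1 cell of 14-day blood, while Cd74 was found in 10.6%, H2-Aa in 5.69%, H2-Ab1 in 11.4%, C1qa in 0.407% and Cst3, which NK cells have too, in 62.2%. The summed level of the 12 myeloid genes in the cells with 3 or more genes was 99.1, 120, 1833, 123, 1364 and 1883 CPM by group, and between 96.9 and 127 in cells with none, and S100a8 was at 0. In 14-day lung 23 of the 72 cells had a UMI of at least 1 of 6 myeloid genes, with a median of 13872 UMIs. Without such cells the 14-day lung share was 1.45%, 2.40-fold (1.42 to 4.16) that of naive lung.

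Other lists had few UMIs but not only zeros. Of the genes with at least 20 UMIs in both sets of cells together, 2 of 4 ILC2 and ILC3 genes, 3 of 4 B cell genes and 2 of 3 endothelial and epithelial genes were at least 2-fold higher and none lower. Of the 10 ILC2 and ILC3 genes 5 were at 0 in the 246 cells, and Nrp1 had 15.8 against 3.23 CPM. Among B cell genes Cd79a was at 0 and Ighm had 123 against 40.9 CPM. Named after their values were seen, Cd79b had 8 UMIs in the 246 cells (log2 2.21), Ms4a1 2 (1.54) and Epcam 17 (3.86). Of 6 endothelial and epithelial genes 4 were at 0 and Pecam1, also carried by leukocytes, had 127 against 62.5. Cell cycle genes were not higher, with 4 of 6 at least 2-fold lower, Stmn1 at 15.8 against 60.2 and Tuba1b at 78.0 against 101 CPM.

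Among the 10773 genes found in at least 1% of cells, the 10 whose log-normalized values followed the number of listed genes most closely over the 21113 cells were Trgc4 (r = 0.43), Inpp4b (0.41), Ltb (0.41), St6galnac3 (0.32), Atp8a2 (0.29), Gpr183 (0.29), Itga1 (0.27), Asb2 (0.26), Cd226 (0.25) and Tnfsf10 (0.25). Trgc4, a constant segment of the γ-chain of the T cell receptor, had 134 CPM and was in 53.3% of the 246 cells, against 2.14 CPM and 0.921% in cells with none. Ltb, which codes for lymphotoxin-β, had 583 against 36.5 CPM, and Gpr183, a receptor for oxysterols, 151 against 5.30.

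For each single gene, the 3 genes most like it over the same cells were mostly other genes of the list. For Cd200r1 they were Cxcr6 (r = 0.34), Ckb (0.26) and Tmem176a (0.26). For Ckb they were Cxcr6, Tmem176b and Tmem176a (each 0.36), and for Podnl1 Cxcr6 (0.29), Tmem176b (0.25) and Tmem176a (0.24). For Tmem176a they were Tmem176b (0.69), Cxcr6 (0.38) and Ckb (0.36), and for Tmem176b Tmem176a, Ckb (0.36) and Il7r (0.35). The exceptions were Atp8a2 in last place for Cxcr6 (0.35), after Tmem176a (0.38) and Ckb (0.36), and Ltb (0.36) and Trgc4 (0.35) in first and last place for Il7r, with Tmem176b (0.35) between them.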

How the data were processed

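Sorted NK cells of naive mice and of mice 6 h and 14 days after tumor injection were sequenced in 3 libraries (Chromium 3′ v3.1). The deposited files hold raw UMI counts of genes and hashtags in every barcode, which the authors made with Cell Ranger (7.0.1 per the labels, 7.1.0 per the file headers) on GRCm38.p6 with GENCODE M23. Cells were not called in the deposited lists, so the filter of the study was applied: between 800 and 5000 genes found, and no more than 6% of counts from mitochondrial genes. No doublet caller was run, and barcodes with under 90% of tag counts from 1 tag (342, 158 and 141 by library) were left out.

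Summed counts per group held 16936897 to 35922737 UMIs and were scaled to CPM. Intervals are exact Poisson or Clopper-Pearson intervals at 95%, and ratios have exact intervals conditional on both counts. A count of 0 was set to 3 counts where that gave a bound and otherwise left without a ratio. Log-normalized values are log(1 + UMIs per 10000). With 1 library per condition no p-value was made. Genes other than the 7 were named by rule: the first 6 of each list with at least 20 UMIs in cells with 3 or more of the genes, the 10 genes most correlated with their number, and the 3 most like each gene. The 7 genes and all lists were chosen with earlier results of these data known. Positions are from GENCODE M21, which shares the assembly with M23, and 25512 of 25906 gene IDs were found in it. Alternatives changed the filter on cells, tags, detection, depth, the number of genes, totals, free RNA and the other cell types. The scripts were tested on simulated counts. Python 3.11.15, numpy 2.4.6, scipy 1.17.1 and pandas 2.3.3 were used. Some genes of the lists are not reported here.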

Additional observations from a re-analysis of the deposited data

Results flagged for a closer look

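Tmem176a was 0.84 lower on the log2 scale in lung than in blood cells at 6 h (log2 ratio -0.84) and 0.53 higher in lung at 14 days, with an interval apart from 0 each time, so the same contrast had opposite directions at these times. The difference between them was not tested, since each time is 1 library. Without cells that had a UMI of Lyz2, Csf1r, Cd74, H2-Aa, H2-Ab1 or C1qa, the ratio at 14 days was -0.14.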

How the results depend on the processing

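The share of cells with 3 or more of the genes was taken under 16 settings, the main one included. It was higher at 14 days than in the naive library under 16 of 16 in lung and in blood. 14-day blood was above 14-day lung in 16 of 16, and 6 h lung was above naive lung in 14 of 16. These counts use directions without intervals, and some settings left few cells with 3 or more genes. The size of the share moved with the definition. In the order naive lung, naive blood, 6 h lung, 6 h blood, 14-day lung and 14-day blood it was 0.218%, 0.137%, 0.342%, 0.401%, 1.15% and 2.13% with at least 2 UMIs per gene, 0.334%, 0.140%, 0.259%, 0.440%, 0.961% and 1.79% at 3000 UMIs per cell, and 1.44%, 1.21%, 1.58%, 1.78%, 4.14% and 5.03% for 2 or more genes. For 4 or more genes it was 0.245% in naive lung, 0.513% in 6 h lung, 0.510% in 6 h blood, 1.43% in 14-day lung and 2.42% in 14-day blood. Without Ckb and Podnl1 it was 2.46% in 14-day blood. Leaving out every cell with a UMI of the T cell list kept only 8.90% to 13.4% of cells, since NK cells carry Trbc1 and Trbc2, and gave 0 in naive blood, 0.181% in 6 h lung, 1.26% in 14-day lung and 1.47% in 14-day blood. That left 4 cells with 3 or more genes in 14-day lung and 2 in naive lung. Leaving out cells with a UMI of the myeloid list gave 0.939% in 14-day lung and 2.62% in 14-day blood. In lung these were 15 of 1598 cells at 14 days, against 11 of 2058 in the naive library, and no interval is given for their ratio. Chosen after seeing the data, leaving out cells with a Cd3e, Cd3d or Cd3g UMI gave 2.42% in 14-day blood, and leaving out those with a UMI of 6 myeloid genes gave 1.45% in 14-day lung.

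With a minimum of 1000 UMIs, which only Il7r and Cd200r1 reach, the genes past 2-fold numbered 0 in 14-day over naive lung (3.02% of all genes tested were), 1 in blood (0.332%), 0 in 6 h over naive blood (0.126%) and 0 between tissues at 14 days (2.96%). At 1.5-fold there were 1 in 6 h over naive lung (4.57%), 3 in blood (4.79%), and 2 between tissues in both the naive (16.4%) and the 6 h library (15.8%).

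Among log2 ratios whose interval over all cells excluded equality, 15 changes of sign were counted over the settings. A ratio that changed sign under several settings was counted for each. Ratios whose interval held equality were not counted, and some of them changed sign too. Without cells with 3 or more genes, for example, Tmem176b in 6 h over naive lung went from 0.26 to -0.51. Without cells with 3 or more genes, 14-day over naive lung was -0.084 for Cd200r1 and -0.12 for Cxcr6, blood was -0.076 for Il7r and -0.19 for Cd200r1, and Podnl1 was 0.61 in lung over blood at 14 days. Without T cell list cells, Il7r was -0.56 in 6 h over naive blood, and lung over blood at 14 days was -0.79 for Il7r, 1.19 for Cd200r1 and 0.51 for both Cxcr6 and Podnl1. Without myeloid list cells, Cd200r1 was -0.51 in 14-day over naive lung, Il7r -0.20 in lung over blood at 6 h and Tmem176a -0.13 at 14 days. Without cells with the 6 myeloid genes, lung over blood at 14 days was -0.14 for Tmem176a and -0.00077 for Tmem176b. These settings keep fewer cells and UMIs, and beyond that the cause was not tested. With the T cell list, 9 further ratios had too few UMIs for a value. No paired analysis was possible because the results come from no test, and lung over blood is instead given within each of the 3 libraries.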
